A study of Mus musculus with 6 samples.

Results

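The genes of the TGF-beta and activin pathway were examined in the colon of Adamts4 knockout mice (KO) and wild-type mice (WT), all given 2.5% dextran sodium sulfate (DSS) for 7 days. The 10 genes were chosen by symbol: the ligands Tgfb1, Tgfb2 and Tgfb3, the activin subunits Inhba and Inhbb, the activin antagonist Fst, the latent TGF-beta binding protein homologue Ltbp2, the receptors Tgfbr1 and Tgfbr2, and the matrix gene Tgfbi. All 10 had a row among the 21899 genes of the deposited table, and all 10 were among the 14553 that passed the count filter. There were 3 RNA-seq libraries from KO colon and 3 from WT colon, numbered KO 1 to KO 3 and WT 1 to WT 3. DSS injures the colonic epithelium and causes acute colitis, and ADAMTS4 is a secreted protease that cleaves large proteoglycans. The sources used here give no knockout allele, strain, sex, age or litter, so the genotype and any difference in genetic background cannot be told apart. The labels do not tie each library to an animal of its own, and p-values thus cover only the spread among these libraries, which may be technical. Untreated colon was not analysed here.

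TGF-beta ligands are secreted in a latent form, held in the matrix by latent TGF-beta binding proteins and released by integrins and other factors. The active ligand brings together the type II receptor TGFBR2 and the type I receptor TGFBR1, which phosphorylates SMAD2 and SMAD3. Activins are dimers of beta subunits encoded by Inhba and Inhbb. They signal through the type II receptors ACVR2A and ACVR2B and the type I receptor ACVR1B to the same SMAD proteins, and follistatin, the product of Fst, binds and neutralises them. In the gut, TGF-beta is known for restraining immune cells and for driving matrix production by fibroblasts, and the activin beta A subunit is known to be raised in inflamed mucosa.

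Adamts4 had 0 counts in each KO library and 900 to 997 counts in the WT libraries, which at a floor of 3 counts per library made it at least 289-fold lower in KO. Total counts ran from 15786214 to 20348172 in the KO libraries and from 17895970 to 22932125 in the WT libraries. KO 3 stood farthest out on the first principal component (score 73.1, against -16.6 to 26.5 in the other KO libraries and -47.0 to -6.88 in the WT libraries). Mitochondrially encoded genes took 4.03% to 9.50% of counts in KO and 4.29% to 6.05% in WT. All 5 colon markers that were examined (Cdx1, Cdx2, Slc26a3, Car1 and Muc2) were detected, with a summed level of 17789 to 24801 counts scaled to the library total (CPM) in KO and 11331 to 15667 CPM in WT. CPM values carry TMM factors and compare libraries, not genes. Differences are log2 values of KO minus WT from edgeR's quasi-likelihood test, with standard errors (SE), and a gene was called at a Benjamini-Hochberg adjusted p below 0.05 over all genes tested.

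Both activin subunit genes had lower levels in every KO library than in any WT library. Inhbb, which encodes the beta B subunit, was at 3.13, 1.98 and 1.18 CPM in KO 1, KO 2 and KO 3, against 12.4, 13.4 and 8.87 CPM in WT 1, WT 2 and WT 3. The highest KO value was thus well below the lowest WT value, and KO 3 was the lowest of all. Inhba, which encodes the beta A subunit, was at 3.13, 5.02 and 1.99 CPM in the KO libraries and at 12.2, 10.7 and 8.59 CPM in the WT libraries. Again the groups did not overlap, with KO 2 nearest to WT. These levels rest on 22 to 61 counts of Inhbb per KO library and 158 to 290 per WT library, and on 37 to 81 counts of Inhba per KO library and 153 to 286 per WT library.

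The difference in Inhbb was -2.45 ± 0.37 (log2, SE; 95% interval -3.31 to -1.60), a level 5.48-fold lower in KO, with an edgeR adjusted p of 0.0595. Inhba differed by -1.64 ± 0.35 (95% interval -2.45 to -0.84), 3.12-fold lower in KO, with an edgeR adjusted p of 0.116. In edgeR with TMM factors and the default filter neither passed the threshold. Inhbb passed it in edgeR with upper-quartile factors (adjusted p = 0.0458), with no count filter (0.0343), with the replicate block (0.0277) and when KO 1 was left out (0.0467). In DESeq2 both fell, with adjusted p of 4.22e-08 for Inhbb and 0.000878 for Inhba. Without KO 3 the DESeq2 adjusted p was 4.09e-07 for Inhbb and 0.00451 for Inhba. The edgeR differences were then -2.17 ± 0.32 and -1.37 ± 0.30, with edgeR adjusted p of 0.104 and 0.185. The exact two-sided permutation p was 0.1 for each gene, the smallest that 3 libraries against 3 allow. The 6 neutrophil markers, all with fold changes below 0, were also lower in KO as a sum. They were at 33.9, 13.8 and 8.48 CPM in KO 1, KO 2 and KO 3, against 179, 82.4 and 68.8 CPM in WT 1, WT 2 and WT 3. Their order was that of Inhbb but not Inhba within KO, and that of Inhba but not Inhbb within WT. The endothelial, pericyte, B and plasma cell and blood sums, given below, were lower in KO without overlap as well. In bulk tissue, fewer cells of a type and less RNA per cell cannot be told apart. The part of these cell types in the activin subunit result was not tested.

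**Figure D1:**
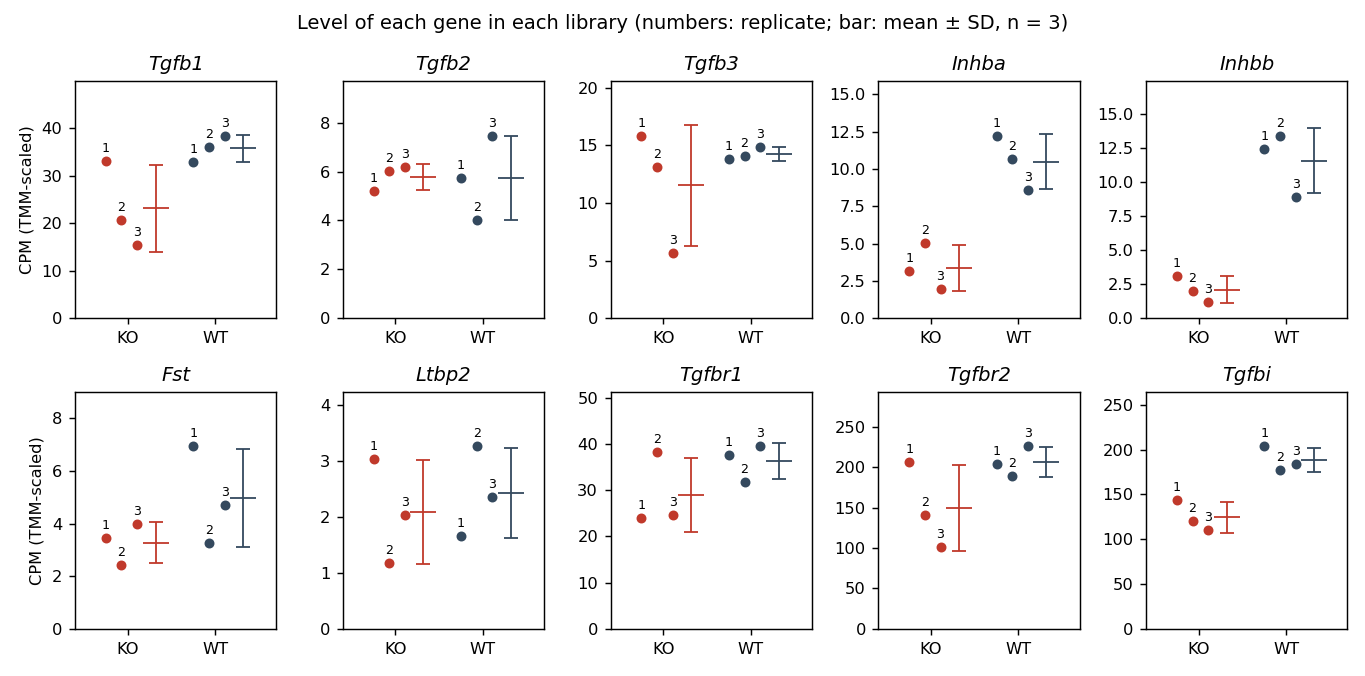
TMM-scaled CPM (vertical axis, from 0, a different scale in each panel) of the 10 genes in the 3 KO and 3 WT libraries; each point is a library with its replicate number, and the bar beside the points is the mean ± SD. Inhba, Inhbb and Tgfbi have every KO point below every WT point, while in Tgfb1, Tgfb3 and Tgfbr2 the KO points are spread out with KO 3 lowest.

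The upstream sequences of both activin subunit genes are shown because these were the genes with the smallest p in edgeR among the 10. They are the 250 bases before the annotated start, written 5′ to 3′ on the gene's strand, from RefSeq on GRCm38.p6. Capitals mark matches to the motifs searched. Inhbb lies on the minus strand of chromosome 1 (119415465 to 119422248 on GRCm38, 1 annotated transcript) and Inhba on the plus strand of chromosome 13 (16011851 to 16031621, 2 annotated transcripts).
Inhbb, chr1:119422249-119422498, minus strand: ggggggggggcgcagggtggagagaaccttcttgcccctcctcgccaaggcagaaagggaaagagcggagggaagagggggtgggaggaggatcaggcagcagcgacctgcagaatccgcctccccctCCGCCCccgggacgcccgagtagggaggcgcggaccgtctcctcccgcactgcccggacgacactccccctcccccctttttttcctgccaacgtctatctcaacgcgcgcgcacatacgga
Inhba, chr13:16011601-16011850, plus strand: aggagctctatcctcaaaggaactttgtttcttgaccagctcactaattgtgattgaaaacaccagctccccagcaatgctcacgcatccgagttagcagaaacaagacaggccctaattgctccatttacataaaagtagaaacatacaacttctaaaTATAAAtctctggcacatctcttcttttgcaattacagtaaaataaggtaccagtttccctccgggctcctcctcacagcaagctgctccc

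The 2 stretches differ in base composition, with 68.0% G and C upstream of Inhbb and 43.2% upstream of Inhba. Motifs were searched on both strands from 250 bases before to 50 after the start. CAGACA is a SMAD-type motif, held by 21.0% of the 32851 promoter windows of the table. GTCTAGAC, the palindromic SMAD motif, was in 0.213% of windows. TGANTCA, the AP-1 motif, was in 7.81%, and the cyclic AMP response motif TGACGTCA in 1.79%. The SP1 motif GGGCGG was in 35.7% and the TATA box TATAAA in 13.6%. No 2 matches overlapped among these genes. Inhbb had a GGGCGG match on the strand opposite the gene, printed as CCGCCC, at base -122 and Inhba a TATAAA match at base -91, counted from the start. Neither window held a match to the SMAD, AP-1 or cyclic AMP motifs. A promoter window was found for 8 of the 10 genes, not for Fst and Tgfb3. GGGCGG matches were in the windows of 5 of these 8 genes, and Tgfb1 held 6 of them.

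The ratio of the beta subunit genes was higher in KO without overlap, but barely so in KO 1, and the difference did not pass adjustment. The count ratio of Inhba to Inhbb was 1.0, 2.51 and 1.67 in KO 1, KO 2 and KO 3, against 0.986, 0.799 and 0.968 in the WT libraries. KO 1 differed little from WT, and KO 2 was the highest. The mean log2 ratio was 0.69 ± 0.66 in KO and -0.13 ± 0.17 in WT (SD, n = 3 each), with an exact two-sided permutation p of 0.1, or 0.48 after Benjamini-Hochberg adjustment over the 6 ratios examined. The difference of 0.82 was 0.50 without KO 2 and 1.16 without KO 1. On the deposited transcripts-per-million scale (TPM), which allows for transcript length, Inhba and Inhbb together had 2.49, 3.21 and 0.958 TPM in KO 1, KO 2 and KO 3, against 8.84, 9.06 and 6.53 TPM in WT 1, WT 2 and WT 3. The beta B subunit made up 52.7%, 27.7% and 47.2% of this sum in the KO libraries and 60.4%, 65.3% and 57.9% in the WT libraries. These shares are affected by the counts per TPM of Inhba, given below. Relative to its median library these were 0.795 and 0.689 in KO 1 and KO 2, against 0.951 to 1.07 in WT.

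Follistatin did not differ detectably between the groups. Fst was at 3.44, 2.42 and 3.97 CPM in KO 1, KO 2 and KO 3, against 6.93, 3.26 and 4.72 CPM in WT 1, WT 2 and WT 3. WT 1 was the highest library, and KO 1 and KO 3 were above WT 2. The difference was -0.60 ± 0.35 (95% interval -1.4 to 0.21, edgeR adjusted p = 0.509), an interval wide enough to hold no difference and one of more than 1 log2 unit. Leaving out 1 library in edgeR gave differences from -0.83 (without WT 2) to -0.29 (without WT 1). The count ratio of Inhba to Fst was 0.911, 2.06 and 0.503 in the KO libraries and 1.76, 3.26 and 1.82 in the WT libraries. KO 2 was above WT 1 and WT 3 in this ratio, and the exact permutation p was 0.3 (adjusted 0.48).

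Of the TGF-beta ligand genes, Tgfb1 was the most abundant by TPM in every library. Tgfb1 had 33.2, 20.8 and 15.3 CPM in KO 1, KO 2 and KO 3, against 32.8, 36.0 and 38.4 CPM in WT 1, WT 2 and WT 3. KO 1 lay within the WT range, whereas KO 2 and KO 3 were below it. The difference was -0.63 ± 0.27 (unadjusted p = 0.0485, edgeR adjusted p = 0.382) and -0.40 ± 0.23 in edgeR without KO 3. Leaving out KO 1 instead gave -0.98 ± 0.20 with an edgeR adjusted p of 0.0862 and a DESeq2 adjusted p of 0.000847, where DESeq2 on all libraries gave 0.291. Tgfb1 lies on the plus strand of chromosome 7 (25687002 to 25705077 on GRCm38).

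Tgfb3 was at 15.8, 13.1 and 5.64 CPM in KO 1, KO 2 and KO 3 and at 13.8, 14.1 and 14.9 CPM in the WT libraries. KO 1 was the highest of all libraries and KO 3 by far the lowest, while the WT values varied by only 4.03% of their mean (SD over mean). The difference was -0.31 ± 0.34 (edgeR adjusted p = 0.745), and 0.023 ± 0.19 without KO 3. Tgfb2 was at 5.19, 6.01 and 6.17 CPM in the KO libraries and 5.73, 4.02 and 7.47 CPM in the WT libraries. All KO values of Tgfb2 lay within the WT range, with a difference of 0.013 ± 0.28 (95% interval -0.63 to 0.65). GENCODE M21 has antisense transcripts over Tgfb2, Inhba, Fst and Ltbp2, and Tgfb3 overlaps Ttll5, a gene of the table on the other strand. No source used here says whether counting used strand, so reads of these partners may be shared.

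By TPM, Tgfb1 made up 72.8%, 65.4% and 70.6% of the summed ligand level (Tgfb1, Tgfb2 and Tgfb3) in the KO libraries, against 74.7%, 77.0% and 75.0% in the WT libraries. This sum was 37.3, 27.9 and 16.3 TPM in the KO libraries and 37.9, 40.4 and 43.2 TPM in the WT libraries. Tgfb2 had the smallest share in each library, between 4.85% and 12.8% in KO and between 3.69% and 6.56% in WT. The count ratios of Tgfb3 to Tgfb1 and of Tgfb2 to Tgfb1 overlapped between the groups (exact permutation p = 0.4 and 0.3).

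Ltbp2, an extracellular matrix protein of the latent TGF-beta binding protein family that itself does not bind latent TGF-beta, had few counts in every library. It had 59, 19 and 38 counts in the KO libraries, or 3.03, 1.18 and 2.04 CPM, against 39, 64 and 42 counts in the WT libraries, or 1.67, 3.26 and 2.36 CPM. The groups overlapped, with KO 2 below and WT 2 above all other libraries (-0.21 ± 0.43, edgeR adjusted p = 0.865). On the TPM scale the order was different, with 1.86, 1.45 and 1.06 TPM in the KO libraries and 0.729, 0.904 and 1.20 TPM in the WT libraries. The authors' deposited table accordingly lists a log2 fold change of 0.63 for Ltbp2, with a p-value of 0.659.

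The 2 scales part where a gene's counts per TPM, a quantity that depends on the transcript length behind the TPM, differ between libraries. Relative to its median library, Ltbp2 had 0.874, 0.465 and 0.922 counts per TPM in the KO libraries, against 1.25, 2.04 and 1.08 in the WT libraries, a 4.40-fold range. Ltbp2 has 7 annotated transcripts. For Inhba the values were 0.795, 0.689 and 1.05 in the KO libraries and 1.06, 1.07 and 0.951 in the WT libraries, a 1.55-fold range. Its TPM were 1.18, 2.32 and 0.506 in KO and 3.51, 3.14 and 2.75 in WT, still without overlap, and the authors' deposited table lists a log2 fold change of -1.23. The other 8 genes had ranges of 1.02-fold to 1.22-fold, against a median of 1.04-fold over 12722 genes with at least 20 counts in every library, of which 5.46% had a range above 1.5-fold.

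**Figure D2:**
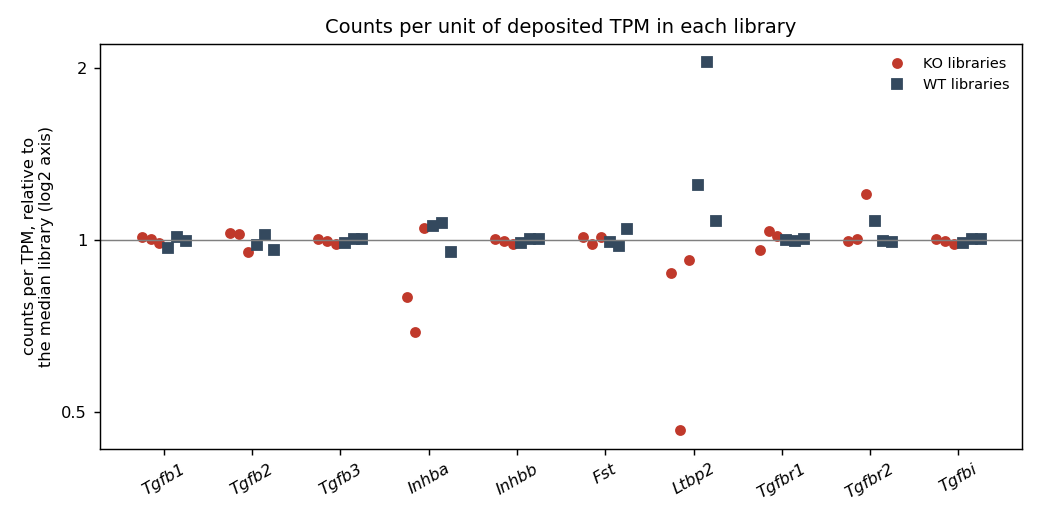
Counts per unit of deposited TPM for each gene (horizontal axis) in each library, relative to the gene's median library, on a log2 axis; circles are KO libraries and squares WT libraries, in replicate order. Ltbp2 runs from 0.465 in KO 2 to 2.04 in WT 2 and Inhba from 0.689 in KO 2 to 1.07 in WT 2, while Inhbb stays near 1 in all 6 libraries.

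The receptor genes were not called. Tgfbr2, the ligand-binding type II receptor, had 206.7, 141 and 101 CPM in KO 1, KO 2 and KO 3, against 203.7, 189 and 225 CPM in WT 1, WT 2 and WT 3. KO 1 lay within the WT range, and KO 2 and KO 3 were below it. The difference was -0.46 ± 0.25 (edgeR adjusted p = 0.472), and -0.24 ± 0.20 without KO 3. Without KO 1 it was -0.76 ± 0.20, and Tgfbr2 then fell in DESeq2 (adjusted p = 0.0108). Tgfbr1, the signalling type I receptor, was at 24.1, 38.2 and 24.7 CPM in the KO libraries and 37.7, 31.8 and 39.5 CPM in the WT libraries. Here KO 2 was inside the WT range and KO 1 and KO 3 below it (-0.33 ± 0.22, edgeR adjusted p = 0.563). The count ratio of Tgfbr1 to Tgfbr2 was 0.117, 0.271 and 0.244 in the KO libraries, against 0.185, 0.168 and 0.175 in the WT libraries, so the KO values lay on both sides of the WT range (exact permutation p = 0.8).

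Tgfbi, a secreted matrix protein first found as a TGF-beta-induced gene, was the third gene without overlap. It had 144, 120.0 and 110.3 CPM in KO 1, KO 2 and KO 3, against 204, 177 and 184 CPM in WT 1, WT 2 and WT 3. The spread was small in both groups, at 13.8% of the mean in KO and 7.21% in WT. The difference was -0.60 ± 0.15 (95% interval -0.95 to -0.24), 1.51-fold lower in KO, with an edgeR adjusted p of 0.176. In DESeq2 Tgfbi fell (adjusted p = 0.0276). That call held without KO 1 (adjusted p = 0.000776) and was lost without KO 2, KO 3, WT 1, WT 2 or WT 3 (0.0958, 0.0646, 0.204, 0.0941 and 0.104). Tgfbi lies on the plus strand of chromosome 13 (56609523 to 56639562 on GRCm38).

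**Figure D3:**
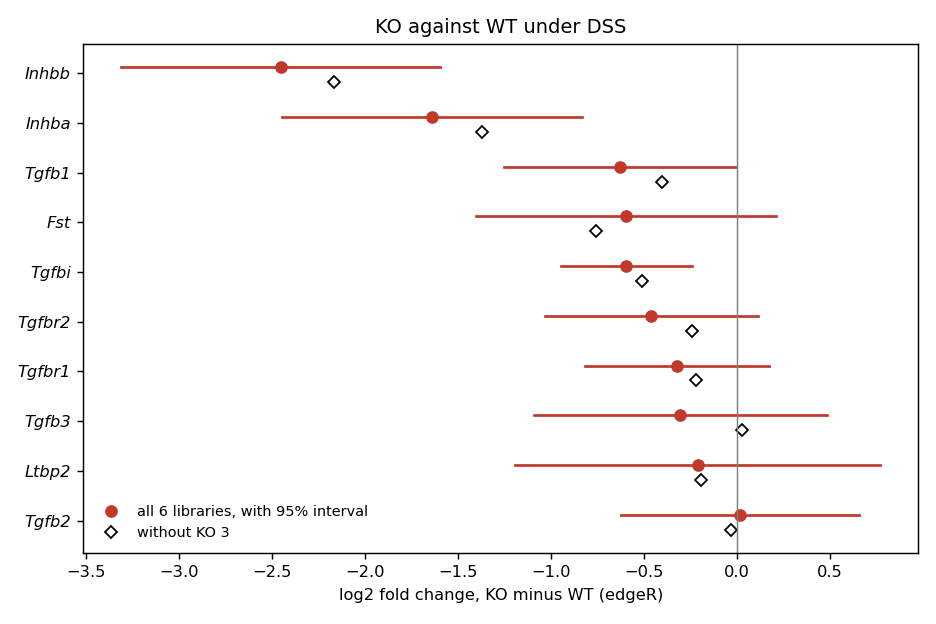
Log2 fold change, KO minus WT, of the 10 genes from edgeR on all 6 libraries (filled circles, with 95% intervals) and without KO 3 (open diamonds). Inhbb and Inhba lie farthest from 0, at -2.45 and -1.64, and the diamond of Tgfb3 is at 0.023.

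Across the 10 genes, edgeR called 0 lower and 0 higher at the adjusted threshold, where it called 0.151% of all genes tested lower and 0.00687% higher. At an unadjusted p below 0.05 it had 4 lower (Inhbb, Inhba, Tgfbi and Tgfb1), against 7.85% of all genes, and 0 higher, against 5.17%. DESeq2 called 3 lower (Inhbb, Inhba and Tgfbi) where it called 2.76% of all genes lower, and 0 higher where it called 0.678% higher. Without KO 3 it called 2 lower, Inhbb and Inhba, against 2.44% of all genes, and 0 higher, against 0.736%. Limma-voom called 0 lower, against 0.186%, and 0 higher, against 0.0137%, with adjusted p of 0.0533 for Inhbb and 0.0953 for Inhba. The KO and WT libraries did not overlap for 3 of the 10 genes, all lower in KO, against 10.2% of all genes tested, and 0 were higher without overlap, against 9.35%. The authors' deposited table lists 3 lower (Inhbb, Inhba and Tgfbi) at its FDR below 0.05, against 1.93% of its genes, and 0 higher, against 0.457%. Log2 fold changes were below 0 for 9 of the 10 genes, against 45.8% of all genes, and above 0 for 1 (Tgfb2), against 54.2%, with a median of -0.53 beside 0.035 over all genes and -0.32 without KO 3.

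In the order of the genes by mean TPM, neighbours overlapped across libraries in more places in KO than in WT. In WT the mean levels ran from Tgfbi (128 ± 8.37 TPM, SD, n = 3) through Tgfbr2 (75.0 ± 7.63), Tgfb1 (30.6 ± 2.08), Tgfbr1 (12.3 ± 1.08) and Tgfb3 (7.74 ± 0.265), each above the next without overlap. Inhbb (5.01 ± 1.10 TPM), Fst (4.43 ± 1.60), Inhba (3.13 ± 0.380) and Tgfb2 (2.15 ± 0.674) followed in WT, each overlapping its neighbour, and Ltbp2 (0.943 ± 0.236) was last. In KO the first 5 places were the same genes in the same order, from Tgfbi (81.6 ± 14.2 TPM) to Tgfb3 (6.14 ± 3.01), but every neighbour among them overlapped across libraries. Within each KO library, Tgfbi, Tgfbr2, Tgfb1 and Tgfbr1 kept this order. Tgfb3 was below Tgfbr1 except in KO 1 (8.326 and 8.295 TPM). Fst was at 2.78 ± 0.426 TPM in KO, above Tgfb2 (2.05 ± 0.221) without overlap. Inhba (1.33 ± 0.917 TPM) and Inhbb (0.885 ± 0.430) came after Ltbp2 (1.46 ± 0.399) in KO, and these overlapped in turn.

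The rest of the pathway was described through 56 other genes in 6 lists by role, of which 50 were tested. In edgeR 0 of the 50 passed the adjusted threshold in either direction, with 4 lower and 3 higher at an unadjusted p below 0.05, and limma-voom likewise called 0. The unadjusted counts were near the shares over all genes tested, 7.85% lower and 5.17% higher. In DESeq2 2 of the 50 fell (Thbs1 and Tgfbr3) and 1 rose (Bambi), where it called 2.76% of all genes lower and 0.678% higher. Without 1 library in turn, DESeq2 kept Thbs1 each time, lost Tgfbr3 without WT 3, and kept Bambi without WT 3 and in no other case. Without KO 1 it also called Eng, Acvrl1, Ltbp1, Ltbp3, Itgb5 and Furin lower, 8 genes in all. Its calls over all genes rose too, to 769 lower without KO 1 from 431 with all libraries.

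Among the 13 reported target genes, none was called in edgeR or DESeq2 on all 6 libraries. At an unadjusted edgeR p below 0.05, 0 were lower, against 7.85% of all genes tested, and 2 were higher, against 5.17%. These 2 were the smooth muscle actin gene Acta2 (0.43 ± 0.18, edgeR adjusted p = 0.382) and the actin-binding protein gene Tagln (0.59 ± 0.26, edgeR adjusted p = 0.382). DESeq2 called Tagln higher when WT 1 was left out. The collagen cross-linking enzyme gene Lox differed by -1.35 ± 0.68 and the cell cycle inhibitor gene Cdkn1a by -0.26 ± 0.14 (edgeR adjusted p = 0.442 and 0.452). Acta2 and Tagln are also contractile smooth muscle genes, and the 5 smooth muscle markers examined had a summed level of 2196 to 2748 CPM in KO and 1160 to 1926 CPM in WT. Their part in these differences was not tested. Of this list 9 genes had fold changes below 0, against 45.8% of all genes, and 4 above, against 54.2%, with a median of -0.26, and of 0.14 without KO 3.

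Of the 14 genes of the latent complex and its activation, 13 had fold changes below 0, as had 45.8% of all genes, and edgeR called none of them. Their median was -0.48, beside 0.035 over all genes, and -0.26 without KO 3. Thbs1, the matricellular protein thrombospondin 1 that can activate latent TGF-beta, had 129, 106 and 57.0 CPM in the KO libraries and 311, 383 and 351 CPM in the WT libraries. Its groups did not overlap (-1.84 ± 0.29, edgeR adjusted p = 0.0595, DESeq2 adjusted p = 4.22e-08). The latent binding protein gene Ltbp1 (31.6 ± 10.9 CPM in KO, 55.8 ± 1.40 in WT, SD) had an edgeR adjusted p of 0.225. Itgb5, an integrin subunit that pairs with the alpha V chain, differed by -0.58 ± 0.20 and Furin, the convertase that cleaves the pro-ligands, by -0.38 ± 0.17 (edgeR adjusted p = 0.300 and 0.383).

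The 7 other receptor genes divided 4 below and 3 above 0, beside 45.8% and 54.2% of all genes (median -0.06, and -0.08 without KO 3). Tgfbr3, the co-receptor betaglycan, had 39.4, 35.4 and 15.1 CPM in the KO libraries, against 67.9, 67.4 and 87.9 CPM in the WT libraries. These did not overlap (-1.31 ± 0.33, edgeR adjusted p = 0.167, DESeq2 adjusted p = 0.00433). Eng and Acvrl1, a co-receptor and a type I receptor of endothelial cells, differed by -0.76 ± 0.33 and -0.63 ± 0.30 (edgeR adjusted p = 0.386 and 0.422). The 5 endothelial markers were lower in the same libraries, at 183, 139 and 60.7 CPM summed in KO 1, KO 2 and KO 3 against 200.1 to 250 CPM in WT, and their part was not tested. The activin type II receptor gene Acvr2a was at 21.1 ± 7.76 CPM in KO and 19.1 ± 0.920 CPM in WT (0.15 ± 0.25).

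Apart from Bambi, the SMAD genes and the inhibitor and feedback genes showed small differences. The SMAD genes Smad2, Smad3 and Smad4 differed by -0.10 ± 0.15, -0.34 ± 0.15 and -0.11 ± 0.20 (edgeR adjusted p between 0.391 and 0.847). Of 11 inhibitor and feedback genes 4 lay below and 7 above 0, beside 45.8% and 54.2% of all genes, with a median of 0.04, and of 0.19 without KO 3. Bambi, a decoy receptor without kinase activity, had 6.73, 6.63 and 7.19 CPM in the KO libraries and 3.21, 3.01 and 4.38 CPM in the WT libraries. All KO values were above the WT values (0.96 ± 0.25, edgeR adjusted p = 0.180, DESeq2 adjusted p = 0.0391). The inhibitory SMAD gene Smad7 (0.19 ± 0.17), the ubiquitin ligase gene Smurf1 (-0.26 ± 0.14) and the repressor gene Tgif2 (0.25 ± 0.31) were not called.

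Of 8 other ligand and inhibin genes only 2 passed the count filter. Lefty1, an antagonist of Nodal, had 3.79 ± 0.573 CPM in KO and 2.76 ± 0.309 CPM in WT, and Gdf11, a ligand related to myostatin, 3.94 ± 0.664 and 4.23 ± 0.596 CPM (edgeR adjusted p = 0.518 and 0.901). Inha, the alpha subunit that turns activin into inhibin, was among the 6 below the filter.

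**Figure D4:**
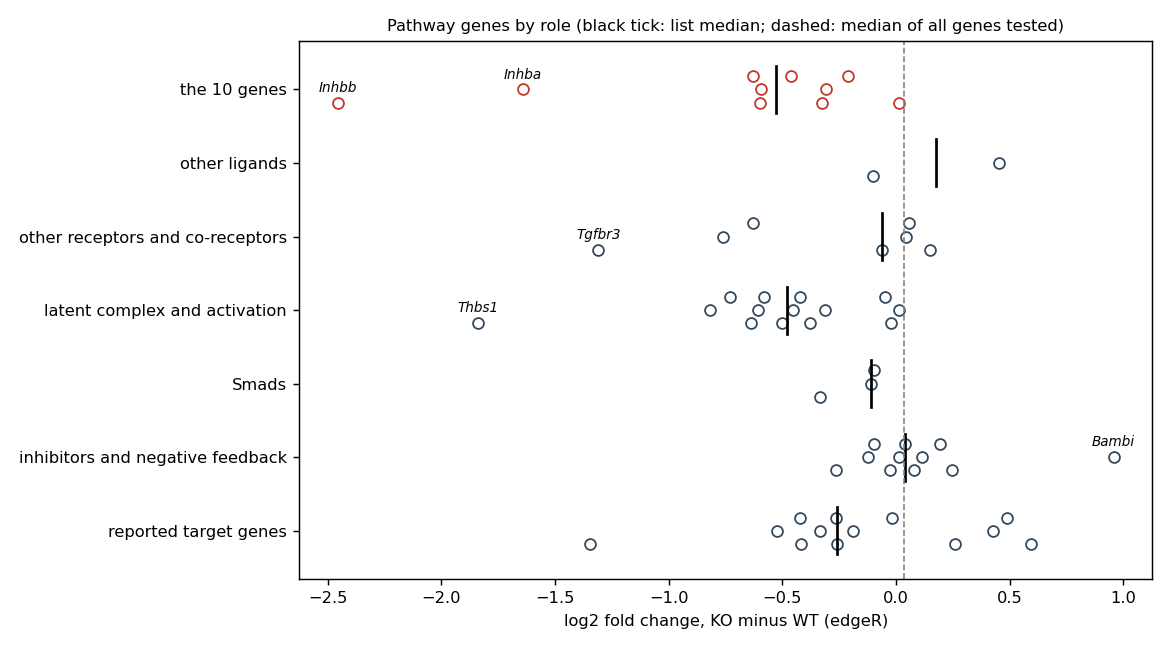
Log2 fold changes, KO minus WT (edgeR), of the 10 genes and of the 6 lists of other pathway genes; each circle is a gene, the black tick is the list median and the dashed line the median of all genes tested (0.035). Inhbb, Thbs1 and Inhba lie farthest to the left, at -2.45, -1.84 and -1.64.

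The genes whose levels over the 6 libraries were most like those of Inhbb were Fpr2, Socs3, Egln3, Adm and the immunoglobulin segment Ighv1-34, with Pearson correlations of log2 CPM between 0.995 and 0.998. These correlations describe 6 libraries that share their genotype split, and Ighv1-34 shares reads with near-identical segments. Fpr2, a formyl peptide receptor of neutrophils and macrophages, had 1.34, 0.867 and 0.537 CPM in the KO libraries, against 4.92, 4.48 and 3.26 CPM in the WT libraries. Like Inhbb it was lowest in KO 3 in KO and in WT 3 in WT. Socs3, an inhibitor of cytokine signalling, and Ighv1-34 had log2 fold changes of -1.64 and -2.51 (edgeR adjusted p = 0.0495 for each). Fpr2, the oxygen sensor Egln3 and the vasodilator peptide gene Adm had -2.20, -1.04 and -1.10. These were not called (edgeR adjusted p = 0.0821, 0.0593 and 0.102).

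Summed markers of other cell types are given for the same libraries. The 6 fibroblast markers, all with fold changes below 0, summed to 711, 605 and 211 CPM in the KO libraries and 667 to 1012 CPM in WT. For the 6 macrophage and monocyte markers the sums were 311, 196 and 97.8 CPM in KO and 246 to 431 CPM in WT. In both lists KO 1 lay within the WT range, and neither edgeR nor DESeq2 called a marker. The sums of 3 further lists were lower in KO without overlap, like those of the neutrophil and endothelial markers, while the smooth muscle and colon sums given above were higher in KO without overlap. Most of the colon sum was Muc2, which overlapped between the groups, at 11203 CPM in KO 3 and 13060 CPM in WT 2. Of the colon markers, Cdx1 alone was higher in KO without overlap. The 4 B and plasma cell markers summed to 149 to 306 CPM in KO and 527 to 1228 CPM in WT. Most of this sum was Jchain, at 289, 221 and 101 CPM in KO 1, KO 2 and KO 3. The B cell genes Cd79a and Ms4a1 overlapped between the groups. Cd79a was at 5.65, 7.13 and 35.6 CPM in KO and 17.4, 28.6 and 21.8 CPM in WT, and Ms4a1 had a log2 fold change of 0.073. The 3 blood markers summed to 53.1 to 154 CPM in KO and 248 to 1050.4 CPM in WT. The 4 pericyte markers summed to 152 to 220.2 CPM in KO and 253 to 321 CPM in WT. EdgeR called no marker of any list. DESeq2 called 4 of 6 neutrophil, 2 of 4 B and plasma cell, 1 of 5 endothelial and 1 of 3 blood markers lower, where it called 2.76% of all genes lower. It called 3 of 5 smooth muscle markers higher, where it called 0.678% of all genes higher. The T cell, mesothelial and enteric neuron and glia sums overlapped between the groups, and DESeq2 called none of their markers. None of these markers was at 0 throughout either group. Tgfb1, Tgfb3, Tgfbr2, Tgfbi and Inhbb followed the fibroblast and macrophage sums in order within KO, highest in KO 1 and lowest in KO 3. This order was not particular to those cell types, as the neutrophil, endothelial and B and plasma cell sums had it too. Among the B and plasma cell markers, Jchain alone had it. The pericyte and blood sums did not have this order. Within WT, Tgfbr2 alone of these genes followed the fibroblast sum in order, and none followed the macrophage sum. The 5 epithelial markers were at 8818 to 11135 CPM in KO and 8121 to 9238 CPM in WT. The part of these cell types in the differences of the 10 genes was not tested.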

How the data were processed

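Trizol RNA of 3 KO and 3 WT colon samples was sequenced from SMARTER libraries (labels' protocols). The builds listed in the submitters' processing notes are GRCm38, mm10 and mm39, with no role for each; aligner, counter and annotation: not given in the sources used here. Per gene, the deposited read counts are whole numbers and were used as they are. The deposited TPM values sum to the same total in each library. The authors' log2 fold change is between their group mean TPM, and no tool is named for their deposited p-value and FDR.

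Counts were tested with edgeR 4.0.16 in R 4.3.3 (TMM factors, default expression filter by group, quasi-likelihood F-test, common dispersion 0.0840). The SE was derived from the F statistic and is approximate. DESeq2 1.42.0 and limma 3.58.1 served as alternatives. The edgeR, DESeq2 and limma-voom fits at default settings, and limma on CPM in place of TPM, were run on simulated data. A pass limit was set for edgeR only. Ratios within a library used counts with 0.5 added and a two-sided exact permutation test, which with 3 against 3 cannot go below 0.1. Positions are from GENCODE M21 (GRCm38). All pairs of libraries differed by more than sampling noise (smallest chi-square per degree of freedom 43.0). Floors cover counting error only.

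The 10 genes, the lists and the alternatives were chosen with earlier results of these data known. Named genes were the 10, Adamts4, up to 4 genes per pathway list with the smallest p, and the 5 genes most like the one of the 10 with the smallest p. Some genes of the lists are not reported here, and the lists' counts and sums leave them out.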

Additional observations from a re-analysis of the deposited data

How the results depend on the processing

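For the 10 genes, the number called lower was 0 in edgeR with TMM factors, 1 (Inhbb) with upper-quartile factors, with no count filter, with limma on log2(TPM + 1), with the replicate block and at an adjusted p below 0.1, and 3 in DESeq2. Leaving out 1 library gave 0 to 1 in edgeR. Leaving out 1 library in DESeq2, chosen after seeing the data, gave 2 to 5, with 5 (Inhbb, Inhba, Tgfbi, Tgfb1 and Tgfbr2) without KO 1. Other pathway genes called lower, 0 in edgeR with TMM factors, numbered 1 (Thbs1) with upper-quartile factors, no count filter, the replicate block and an adjusted p below 0.1, and 2 in DESeq2, which called 1 higher. Without 1 library there were 0 in edgeR, and in DESeq2 1 (without WT 3) to 8 (without KO 1) lower, 2 otherwise, and 0 to 1 higher (Tagln without WT 1, Bambi without WT 3). Over all genes, 22 lower and 1 higher became 9 and 0 with median-ratio factors, 38 lower with upper-quartile factors, 66 and 3 with no count filter, 431 and 106 in DESeq2, 2 higher in limma-voom, and 114 and 20 at an adjusted p below 0.1. Limma gave 66 and 2 on log2(TPM + 1), 44 and 3 on log2(TPM + 0.1), and 3 and 0 without a filter. Without 1 library, edgeR gave 1 to 29 lower and 0 to 2 higher. DESeq2 gave 769 and 231 without KO 1, 285 and 114 without KO 2, 372 and 112 without KO 3, 268 and 55 without WT 1, 234 and 49 without WT 2, and 274 and 110 without WT 3. The replicate block gave 78 lower and 3 higher, but the labels do not say that numbers mark shared animals or batches, and same-numbered libraries deviated from their group means with correlations of -0.42, -0.15 and -0.43.

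Inhbb and Inhba kept their direction under all 22 alternatives, Inhbb being called in 12 (log2 fold change -2.88 to -1.68) and Inhba in 7 (-2.04 to -0.89). All 7 calls of Inhba were in DESeq2, with all libraries or with 1 left out. Outside DESeq2, Inhbb was called in edgeR with upper-quartile factors, no count filter, the replicate block and without KO 1, and on log2(TPM + 1). The values nearest 0, -1.68 and -0.89, were those on log2(TPM + 1). Tgfb2, near 0, changed sign with upper-quartile factors (-0.015), on log2(TPM + 1) with or without a filter (-0.031) and on log2(TPM + 0.1) (-0.032). It ranged from -0.19 to 0.25 when 1 library was left out in edgeR and was -0.014, -0.028 and -0.19 in DESeq2 without KO 2, KO 3 and WT 2. Ltbp2 changed sign on TPM (0.33 with log2(TPM + 1), filtered or not, and 0.57 with log2(TPM + 0.1)) and without KO 2 or WT 2 (-0.58 to 0.065 over the libraries left out in edgeR; 0.065 and 0.053 in DESeq2). Tgfb3 changed sign without KO 3 (range -0.61 to 0.023; 0.029 in DESeq2), and the log2 ratio of Tgfbr1 to Tgfbr2 without KO 2 (range -0.061 to 0.55). The cause was not tested. Depth limits Ltbp2 (19 to 64 counts per library) and, in KO, Inhbb (22 to 61) and Inhba (37 to 81).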
